A study of Mus musculus with 24 samples.

Results

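The genes described here are 7 genes of the junctions between brain endothelial cells: Cldn5, Ocln, Marveld2, Tjp1, Cdh5, Pecam1 and Esam. They were chosen by gene symbol, and are 7 of the 32288 genes counted. Single-nucleus RNA sequencing gave 24 libraries, 1 from the deep brain and 1 from the cortex of each of 12 mice. In Pdgfb ret/ret mice the retention motif of PDGF-B is missing, pericyte recruitment is impaired, and vessels of the deep brain calcify. The cortex of the same mice was sampled as tissue free of calcification. It was asked how the junction genes were expressed in endothelial nuclei of each region and genotype.

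Every mouse was of the B6.Pdgfbtm3Cbet strain and carried at least 1 ret allele, since the controls were Pdgfb ret/wt heterozygotes and no wild-type mouse was used. Each genotype had 6 mice, all female except for control 6, a male. The labels gave mice 1 to 3 of both genotypes an age of 5 months and 0 to 18 days, and mice 4 to 6 an age of 4 months and 7 to 24 days. All were perfused under anaesthesia and none is labelled with a further treatment. The allele is constitutive, so that it is present in every cell and from development on. Each library came from 1 mouse and 1 macro-dissected, frozen region, and p-values of comparisons within a region measure the spread between mice. In the region and interaction fits both libraries of a mouse were treated as independent, except where the mouse was a block.

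Of 237224 barcodes, 204925 passed the limits on genes and mitochondrial UMIs (unique molecular identifiers, each a counted RNA molecule), 124958 from the deep brain and 79967 from the cortex. The median number of UMIs per kept nucleus was 3547 to 7314.5 in deep brain libraries, 804 to 1160.5 in 7 cortical libraries and 4597 to 8054 in the other 5. Any pair of libraries shared 60 to 246 barcodes, at most 2.37% of the smaller library. Classes of nuclei were clusters named from marker genes, with the 7 genes and 40 further junction genes left out of both clustering and naming, and they are endothelial-like, mural-like and so on, written below without the suffix. The endothelial class held 670 nuclei in the deep brain, 324 of mutants and 346 of controls, with 24 to 78 per library, and 148 in the cortex, 72 of mutants and 76 of controls. Only 3 mutant cortical libraries (mice 1, 5 and 6) reached the minimum of 5 endothelial nuclei, against 6 control libraries.

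All 16 endothelial markers met the naming criterion in both regions, and their summed level was 23516 to 28455 CPM (the UMI count of a gene scaled to the total UMIs of the class in a library) in mutant and 20873 to 29682 CPM in control libraries of the deep brain. In the cortex it was 26041 to 36797 CPM (median 32100) in 3 mutant and 16057 to 29050 CPM (median 21099) in 6 control libraries. RNA of mural cells, which sit on the vessel wall, moved with genotype. All 11 mural markers were detected in both genotypes, and their sum was 104 to 1602 CPM (median 639) in the 6 mutant and 1163 to 4092 CPM (median 2661) in the 6 control libraries of the deep brain. In the cortex it was 66.5 to 364 CPM in 3 mutant libraries, with Abcc9, Kcnj8, Atp13a5 and Higd1b at 0, and 0 to 5344 CPM in the controls. The markers of vessel segments also differed in median between genotypes, in both regions. In the deep brain the sum of 5 capillary markers had a median of 2082 CPM in mutants and 3489.9 CPM in controls. That of 5 arterial markers had 923 and 323 CPM, and that of 5 venous markers 1151 and 479.9 CPM. The ranges of the groups overlapped for each of these sums. In the cortex the medians were 2207 CPM in mutants and 3179 CPM in controls for capillary markers. They were 1092 and 245 CPM for arterial and 1665 and 468 CPM for venous markers. The cortical venous ranges, 1242 to 2402 CPM in mutants and 72.0 to 654 CPM in controls, did not overlap. Of markers of other classes, neuronal ones summed to 763 to 1529 CPM in the deep brain and 987 to 7729 CPM in the cortex, and choroid plexus markers reached 3775 CPM in 1 control library. The part of these RNAs in the values of the junction genes was not tested. Endothelial nuclei made up 0.505% ± 0.199 (SD, n = 6) of kept mutant and 0.566% ± 0.125 (n = 6) of kept control nuclei of the deep brain (two-sided exact permutation test, p = 0.548). In the cortex the shares were 0.150% ± 0.121 and 0.234% ± 0.124 (n = 6 each, exact p = 0.249). The smallest p this design allows was 0.00216. Of kept cortical nuclei 50.6% were given no class, and these held 19.0% of the cortical Cldn5 UMIs on 11.8% of all UMIs. The cortical libraries of low depth were those of mutants 1 to 4 and controls 1, 3 and 4. The part of naming and depth in the cortical shares was not tested.

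The blood-brain barrier rests on junctions that seal the space between neighbouring endothelial cells. In tight junctions, strands of claudins and occludin are held to the actin cytoskeleton by scaffold proteins of the zonula occludens family, while adherens junctions are built on cadherins and adhesion molecules of the immunoglobulin superfamily line the lateral border. Pericytes contribute to the maturation of this barrier, and pericyte loss is known to raise transport across brain endothelium.

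The 7 genes lie on 6 chromosomes of the mouse genome (GRCm38). Cldn5 encodes claudin-5, the main claudin of brain endothelium, and spans chr16:18776847-18778262 on the plus strand in a single transcript. Ocln encodes occludin, a tight-junction strand protein, on the minus strand at chr13:100496507-100552718. Marveld2 encodes tricellulin, which seals the points where 3 cells meet, and lies on the same strand at chr13:100595957-100616971, 43.2 kb from Ocln. Tjp1 encodes the scaffold protein ZO-1 at chr7:65296165-65527781 on the minus strand. Cdh5 encodes VE-cadherin, the adhesion protein of endothelial adherens junctions, at chr8:104101625-104144511 on the plus strand. Its span is overlapped on the other strand by Gm29682. The kit keeps the strand of a read, and the strand setting of the counting was not given in the sources used here. Pecam1 encodes CD31, an adhesion protein of endothelium and of blood cells, at chr11:106654217-106750628 on the minus strand. Esam encodes an endothelial cell adhesion molecule of the tight junction at chr9:37528078-37538319 on the plus strand. Reads in exons and in introns both contributed to a gene's count, as the study's methods state.

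Promoters of 4 of the 7 genes (Cldn5, Ocln, Marveld2 and Tjp1) had RefSeq entries on GRCm38.p6, each with 250 bases before and 50 bases after a transcription start. Those of Cldn5, Ocln and Tjp1 are printed 5′ to 3′ because they set the most endothelial tight-junction gene beside a strand gene shared with epithelia and a scaffold gene detected in every class. They lie at chr16:18776597-18776896 (plus strand), chr13:100552669-100552968 (minus strand, 1 of the 2 Ocln entries) and chr7:65371195-65371494 (minus strand). The Cldn5 and Ocln windows lie at the 5′ end of the gene span given above. The Tjp1 window lies inside its span, away from the 5′ end at 65527781. Capitals mark matches on either strand to 5 sets of letters: the GC box GGGCGG, the ETS cores AGGAAG and CGGAAG, the SOX core ACAAAG and the TATA box TATAAA.
Cldn5: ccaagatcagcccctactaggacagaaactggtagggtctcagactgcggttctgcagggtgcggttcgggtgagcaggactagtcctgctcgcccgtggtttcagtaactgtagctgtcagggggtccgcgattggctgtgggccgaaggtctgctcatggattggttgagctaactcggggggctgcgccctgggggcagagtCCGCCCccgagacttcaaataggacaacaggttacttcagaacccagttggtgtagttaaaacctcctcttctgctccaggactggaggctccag
Ocln: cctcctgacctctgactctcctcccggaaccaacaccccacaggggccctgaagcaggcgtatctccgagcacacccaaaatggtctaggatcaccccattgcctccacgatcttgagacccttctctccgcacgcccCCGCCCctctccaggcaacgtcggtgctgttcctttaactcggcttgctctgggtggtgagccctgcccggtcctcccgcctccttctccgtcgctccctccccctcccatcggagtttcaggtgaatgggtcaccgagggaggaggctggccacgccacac
Tjp1: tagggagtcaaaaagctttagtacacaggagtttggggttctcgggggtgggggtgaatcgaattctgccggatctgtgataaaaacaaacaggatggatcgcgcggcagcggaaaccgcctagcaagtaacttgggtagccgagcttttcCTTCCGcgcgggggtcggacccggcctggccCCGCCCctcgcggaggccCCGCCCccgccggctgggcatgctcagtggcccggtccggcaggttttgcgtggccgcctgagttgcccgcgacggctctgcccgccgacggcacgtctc
The Cldn5 and Ocln windows each held 1 GC box and none of the other letters, and the Tjp1 window held 2 GC boxes and 1 CGGAAG. The GC box was found in 35.7% of the 32851 promoters of the table, AGGAAG in 35.4%, CGGAAG in 16.9%, ACAAAG in 18.7% and TATAAA in 13.6%. The printed windows were 58.3%, 64.0% and 65.3% G and C for Cldn5, Ocln and Tjp1, against a median of 52.7% over all promoters.

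Among classes with at least 4 libraries, each of the 7 genes had its highest mean level in endothelial nuclei of both regions, and the genes differed in which other classes followed. In the cortex, choroid plexus, ependymal, mural and T cell nuclei had fewer libraries and were not ranked. Cldn5 stood at 1291 ± 477 CPM (SD, n = 12 libraries) in deep brain endothelial nuclei and at 1451 ± 867 CPM (n = 9) in cortical ones. Its range over deep brain libraries, 736 to 2405 CPM, did not overlap that of any other class. Mural nuclei came next with 48.3 ± 86.4 CPM and a median of 0, and in neurons Cldn5 averaged 0.372 CPM in the deep brain and 0.268 CPM in the cortex. Of all Cldn5 UMIs of the deep brain, 71.4% came from endothelial nuclei.

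Ocln was shared with the epithelia of the ventricles. It averaged 325 ± 58.5 CPM in deep brain endothelial nuclei (n = 12), 88.3 ± 36.9 CPM in choroid plexus nuclei (n = 10), 73.1 ± 34.6 CPM in ependymal nuclei (n = 12) and 32.3 ± 6.34 CPM in fibroblast nuclei (n = 12). The endothelial range of 261 to 431 CPM lay above the choroid plexus range of 0 to 123 CPM, while choroid plexus and ependymal ranges overlapped. Because neurons were many, 62.6% of Ocln UMIs of the deep brain came from them at a level of only 3.93 CPM. Marveld2 was low everywhere. Endothelial nuclei had 18.6 ± 15.7 CPM in the deep brain and 19.1 ± 22.7 CPM in the cortex, resting on 31 and 9 UMIs, and the ranges overlapped those of microglia. In the cortex the unranked choroid plexus nuclei held 8 Marveld2 UMIs on 0.0833% of all UMIs, and endothelial nuclei 10 on 0.142%, so that endothelial nuclei were not shown to be highest there. Neurons held 86.8% of the Marveld2 UMIs of the deep brain, where they held 78.2% of all UMIs.

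Tjp1, a scaffold gene of epithelia as well as endothelium, was found in every class. Endothelial nuclei of the deep brain had 1807 ± 243 CPM, above the ranges of all other classes. Fibroblast, mural and astrocyte nuclei followed with 548 ± 61.4, 521 ± 147 and 475 ± 68.7 CPM and overlapped one another. T cells were lowest of all with 72.4 CPM, on 17 UMIs. Endothelial nuclei accordingly held only 1.05% of the Tjp1 UMIs of the deep brain. In the cortex the endothelial mean was 1535 ± 671 CPM (n = 9), and its range overlapped that of fibroblasts, since control library 4 with 7 endothelial nuclei had only 288 CPM.

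Pecam1 had 784 ± 197 CPM in deep brain endothelial nuclei, followed by 65.2 ± 89.7 CPM in macrophages, 53.0 ± 76.2 CPM in T cells, 49.7 ± 67.1 CPM in mural nuclei and 16.2 ± 5.00 CPM in microglia. The microglial level was 26.9 ± 10.1 CPM in the cortex. Esam was instead shared with mural nuclei, in which it had 277 ± 103 CPM (n = 11), against 519.9 ± 83.7 CPM in endothelial nuclei of the deep brain. The highest mural library, at 423 CPM, lay above the lowest endothelial one, at 387 CPM. In fibroblasts Esam averaged 3.67 CPM and in macrophages 26.4 CPM, and neurons held 43.2% of its deep brain UMIs at 1.37 CPM.

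**Figure D1:**
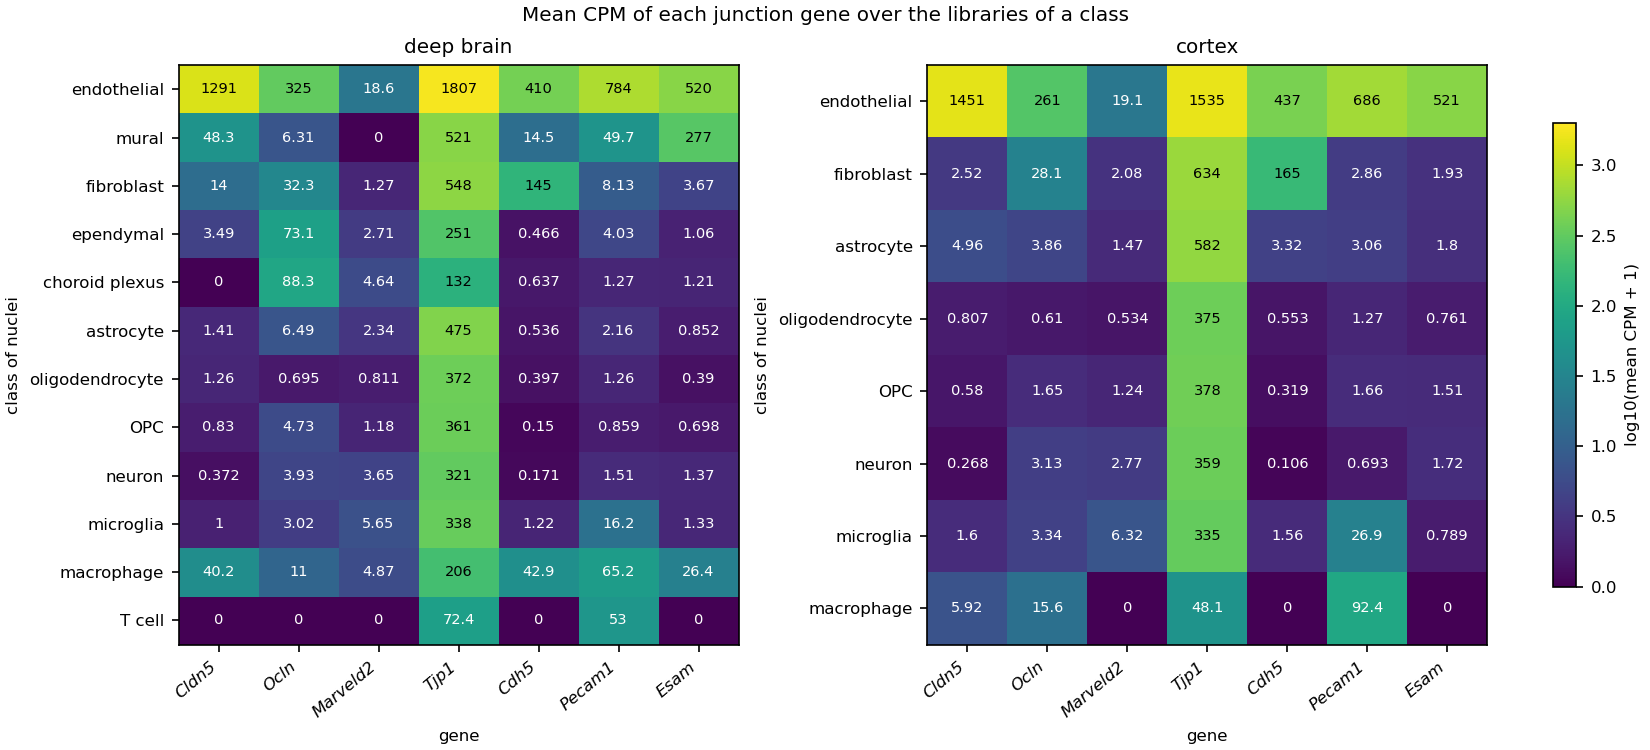
Mean CPM of each junction gene (columns) in each class of nuclei (lines) with at least 4 libraries, over all libraries of both genotypes, in the deep brain (left) and the cortex (right). Colour gives log10(mean CPM + 1) and the printed value the mean, and columns are to be read from top to bottom, since levels were not divided by gene length. The top line is the highest of every column, Tjp1 stays above 40 CPM in all classes, and Cdh5 has 145 and 165 CPM in fibroblasts.

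Cdh5 was shared with fibroblast nuclei. It averaged 410.4 ± 103 CPM in endothelial nuclei and 145 ± 25.1 CPM in fibroblast nuclei of the deep brain (n = 12 each), with ranges of 252 to 552 and 101 to 207 CPM. In the cortex the fibroblast level was 165 ± 28.8 CPM (n = 12). Fibroblast nuclei held 805 and endothelial nuclei 735 of the 2010 Cdh5 UMIs of the deep brain, or 40.05% and 36.6%. At least 1 Cdh5 UMI was seen in 35.1% of 1594 deep brain fibroblast nuclei (exact 95% interval 32.7% to 37.5%) and in 40.4% of 446 cortical ones (35.8% to 45.1%). The same nuclei carried Cldn5 in 1.19% (0.719% to 1.86%) and 1.57% (0.633% to 3.21%) of cases. Intervals cover counting error only.

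The fibroblast Cdh5 was not a feature of 1 cluster. Pooled over libraries, Cdh5 had 82.9 to 178 CPM in all 6 fibroblast clusters of the deep brain and 161 to 177 CPM in both cortical ones. Cldn5 was 0 to 3.37 CPM in 5 of these 6 clusters and 2.42 to 5.72 CPM in the cortical ones. The exception was a deep brain cluster of 139 nuclei with 79.7 CPM of Cldn5, and it also carried 34.0 CPM of Pecam1. In macrophage nuclei Cdh5 had 42.9 ± 43.3 CPM, and a cluster of 26 of these nuclei carried 147 CPM of Cdh5 together with 159 CPM of Cldn5. Between genotypes Cdh5 in fibroblasts differed by 0.01 ± 0.14 (log2 fold change of mutant over control ± SE, adjusted p = 1.00) in the deep brain and by −0.27 ± 0.19 (adjusted p = 0.831) in the cortex. In fibroblasts the edgeR test called 0 of 8250 genes in the deep brain and 0 of 2659 in the cortex (0% in both), with 478 and 173 at an unadjusted p under 0.05, and DESeq2 was not run.

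**Figure D2:**
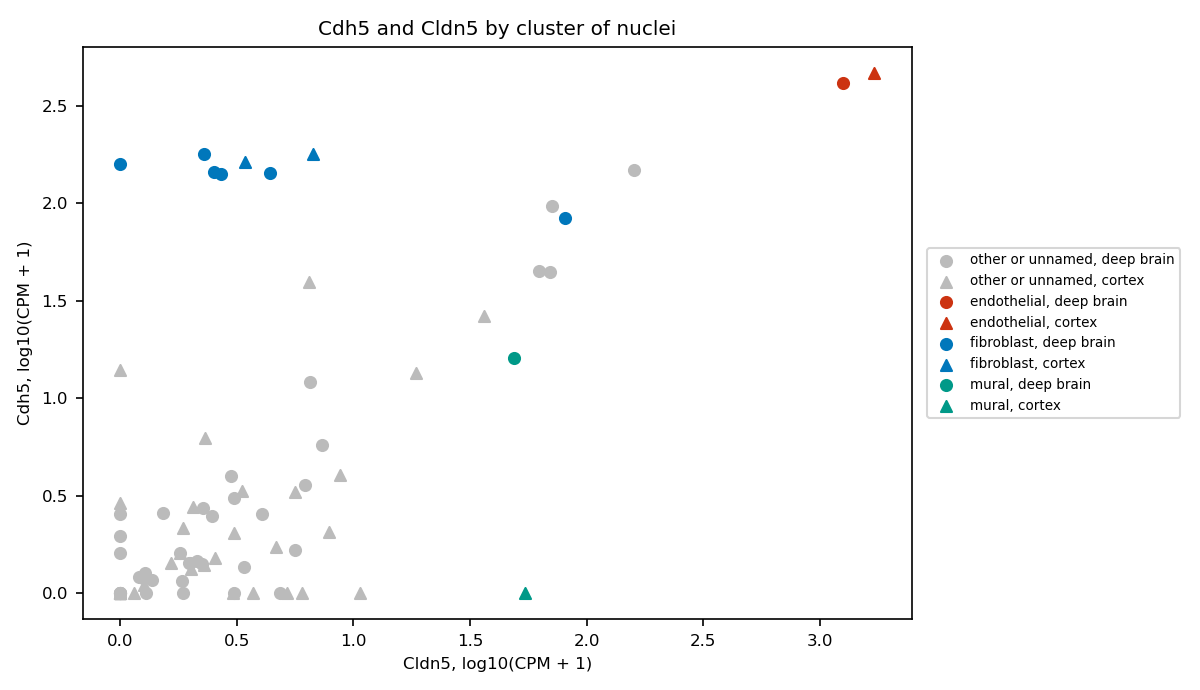
Level of Cdh5 (vertical axis) against that of Cldn5 (horizontal axis), both as log10(CPM + 1), in clusters of at least 20 nuclei, pooled over libraries. Circles stand for the deep brain, triangles for the cortex, and colours for the endothelial, fibroblast and mural classes. Endothelial clusters are high in both genes, and 7 of the 8 fibroblast clusters have Cdh5 between 140.2 and 178 CPM with Cldn5 at or under 5.72 CPM.

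A UMI of a junction gene was found in most endothelial nuclei, at a share set in part by depth. In the deep brain, whose endothelial nuclei had a median of 1916.5 UMIs, Tjp1 was seen in 80.9% of 670 nuclei, Cldn5 in 63.4%, Pecam1 in 56.7%, Esam in 55.7%, Ocln in 45.7%, Cdh5 in 45.2% and Marveld2 in 4.03%. Neurons, with a median of 9614 UMIs, had Tjp1 in 81.8%, Ocln in 3.50%, Marveld2 in 3.43%, Pecam1 in 1.43%, Esam in 1.38%, Cldn5 in 0.388% and Cdh5 in 0.169% of 69660 nuclei. Oligodendrocytes, with 2671 UMIs, had Tjp1 in 57.7% and the other 6 genes in 0.112% to 0.360% of 30238 nuclei. After each nucleus was thinned to 1000 UMIs, which left out 102 endothelial nuclei, 1266 neurons and 198 oligodendrocytes, Tjp1 was seen in 77.6% of endothelial nuclei, 25.5% of neurons and 29.3% of oligodendrocytes. The Tjp1 share that was alike in endothelial nuclei and neurons was therefore unlike at equal depth. Thinned shares of the endothelial genes were 54.2% for Cldn5, 40.8% for both Pecam1 and Esam, 27.1% for Ocln and 25.0% for Cdh5, against 0.0249% to 0.582% in neurons. Marveld2 had 1.41% against 0.521% in neurons and 0.0766% in oligodendrocytes, and rested on 8 endothelial nuclei, near the level of single UMIs.

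In the cortex, with a median of 2762 UMIs per endothelial nucleus, Tjp1 was seen in 89.2%, Pecam1 in 76.4%, Cldn5 in 75.0%, Esam in 71.6%, Cdh5 in 62.8%, Ocln in 56.8% and Marveld2 in 6.08% of 148 nuclei. After thinning, the shares were 69.9%, 51.0%, 54.5%, 42.0%, 26.6%, 21.0% and 0.699%. No member of the 7 was seen in 56 of the 670 deep brain nuclei (8.36%, median 956.5 UMIs), and all 7 were seen in 12 nuclei (1.79%, median 10724 UMIs). Of the 7 genes, 6 were seen in 113 nuclei of the deep brain, of which 66 were from mutants and 47 from controls. Their median depths were 4829 and 5153 UMIs. All 7 genes were seen in 10 mutant and 2 control nuclei, 5 genes in 51 and 61, and 4 genes in 55 and 64. These are pooled nuclei, and a difference between genotypes was not tested.

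**Figure D3:**
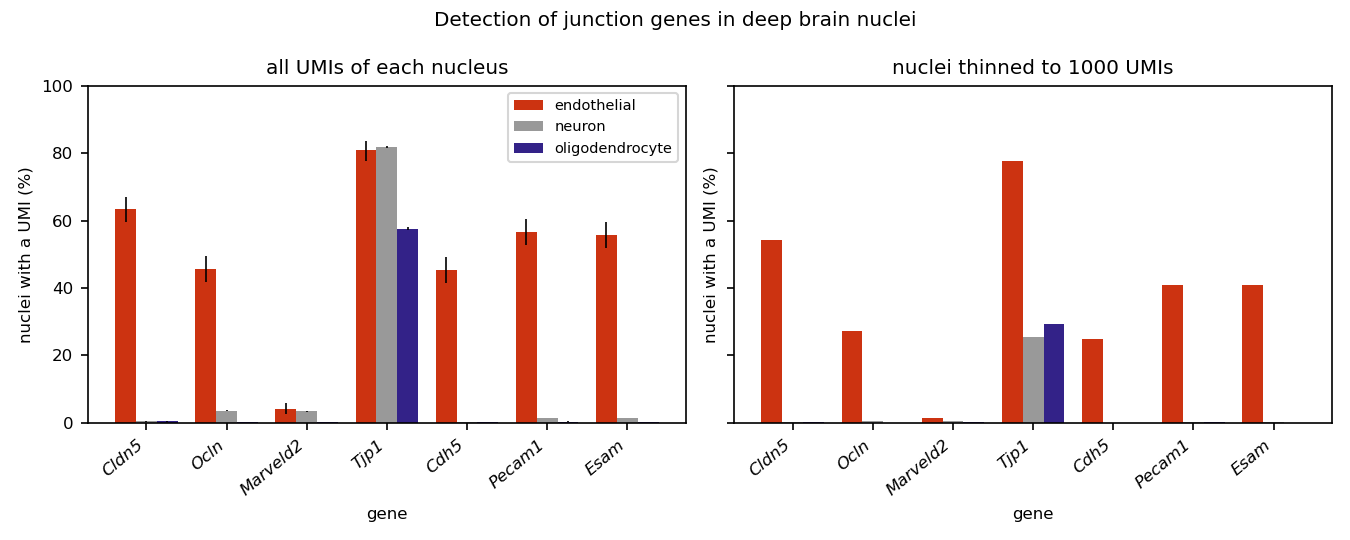
Percentage of deep brain nuclei with at least 1 UMI of each junction gene, in endothelial nuclei, neurons and oligodendrocytes, before (left) and after (right) thinning to 1000 UMIs. Lines on the left bars are exact 95% intervals. Tjp1 is seen in 80.9% of endothelial nuclei and 81.8% of neurons on the left, and in 77.6% and 25.5% on the right.

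Between mutants and controls, no junction gene passed the test in endothelial nuclei of the deep brain. All 6 genes that could be tested had a value above 0, with a median log2 fold change of 0.23, where the median of all 3713 genes tested was −0.02 and 47.3% of them were above 0. The edgeR quasi-likelihood test called 52 of these 3713 genes (1.4%), and 0 of the 6, at an adjusted p under 0.05. DESeq2 also called none of the 6, and none had an unadjusted p under 0.05. For each of the 6 genes, 5 of 6 mutant libraries lay above the control median, and the exception was mouse 6 for Tjp1 and mouse 1 for the others. How many of the 3713 genes showed this pattern, or the partial separations given below, was not counted.

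Among the strand genes, Cldn5 had 736 CPM in the lowest, 1401 CPM in the median and 2405 CPM in the highest mutant library, against 786, 987 and 1671 CPM in controls. In all, 1 mutant lay above all controls and 1 below them. The log2 fold change was 0.41 ± 0.23 (SE, 95% interval −0.07 to 0.88, adjusted p = 0.583). Ocln had 261, 344 and 389 CPM in mutants and 266, 284 and 431 CPM in controls, so that the control range held all mutant libraries but 1. The difference was 0.11 ± 0.17 (−0.25 to 0.47, adjusted p = 0.889). Marveld2, with 23 UMIs over the 6 mutant libraries and 8 over the 6 control libraries, was under the minimum count and was not tested. It had 12.6, 18.2 and 58.7 CPM in mutants and 0, 12.2 and 27.1 CPM in controls, and 3 of the 12 libraries had more than 3 UMIs.

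The scaffold gene Tjp1 had 1429.9, 1955 and 2202 CPM in mutants and 1573, 1633 and 2022 CPM in controls. In all, 2 mutant libraries lay above all controls and 1 below, and the difference was 0.16 ± 0.15 (−0.14 to 0.47, adjusted p = 0.800). It was the most closely bounded of the 6 genes.

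Among the adhesion genes, Cdh5 came nearest to a separation of the groups. Its mutant libraries had 252, 475 and 552 CPM at the lowest, median and highest, and its controls 268, 374 and 460 CPM. In 5 of the 6 mutants Cdh5 was above every control, while mutant mouse 1 was below every control. The share of all genes with such a pattern was not counted. The log2 fold change was 0.32 ± 0.19 (−0.09 to 0.72, adjusted p = 0.644), and 0.43 (adjusted p = 0.343) without mutant mouse 1. Pecam1 had 600.5, 835 and 1135 CPM in mutants and 555, 656 and 1074 CPM in controls, with a difference of 0.23 ± 0.19 (−0.16 to 0.63, adjusted p = 0.766). Esam had 387, 582 and 699 CPM in mutants and 453, 469.9 and 535 CPM in controls. In all, 4 mutants lay above all controls and 1 below, and the difference was 0.22 ± 0.16 (−0.12 to 0.55, adjusted p = 0.736). Single libraries moved some of these differences by more than 1.5 times. Cldn5 was 0.24 without mutant 6 and Pecam1 0.14 without mutant 2 and 0.40 without control 3. Ocln was 0.071 without control 5, 0.18 without mutant 1 and 0.24 without control 2.

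No UMI of the 11 mural markers was found in 453 nuclei, 242 of 324 from mutants and 211 of 346 from controls. Nuclei with few UMIs meet this condition more easily, and the groups kept were not matched in depth. In these nuclei, with 1677 genes tested, the difference was 0.77 for Cldn5 (adjusted p = 0.0617), 0.48 for Cdh5 and 0.47 for Pecam1. It was 0.28 for Esam, 0.26 for Tjp1 and 0.17 for Ocln. With the junction genes kept in the clustering, a further cluster of 264 nuclei joined the class, and the 6 differences lay between −0.13 and 0.11. This cluster had a median of 11819 UMIs, where library medians of the main class were 1598 to 2296. Among its leading genes were Slc6a20a, Ranbp3l, a fibroblast marker here, and Flt1 and Slco1a4, endothelial markers here. Whether its nuclei held RNA of more than 1 cell type was not tested. All 6 genes missed the threshold in both settings.

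**Figure D4:**
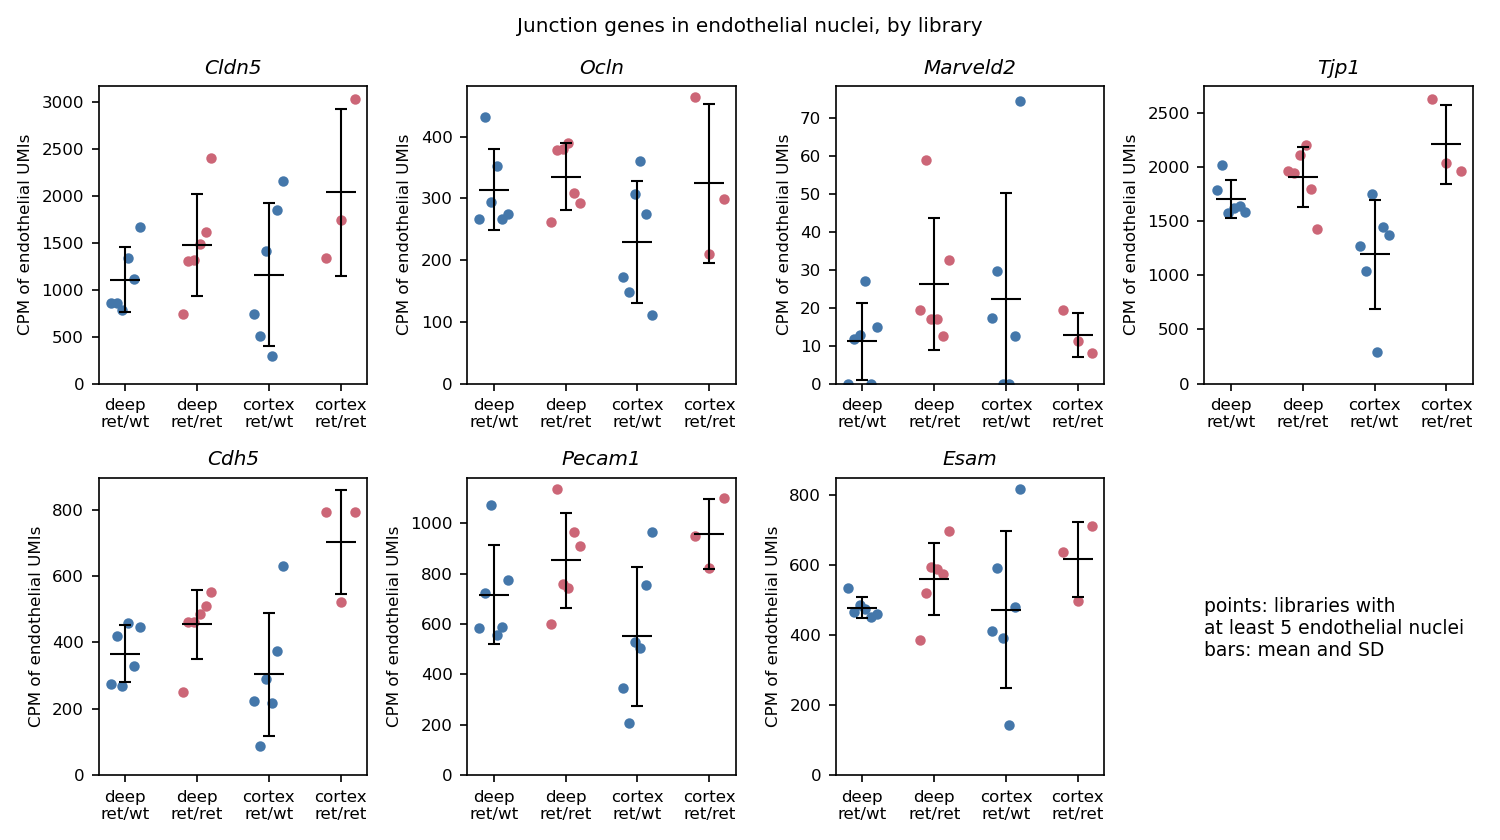
CPM of each junction gene in the summed endothelial nuclei of each library (points), by region and genotype (ret/ret, mutants; ret/wt, controls), with mean and SD as bars. Libraries with at least 5 endothelial nuclei are drawn, which leaves 3 mutant libraries in the cortex. In the deep brain 5 of 6 mutants have Cdh5 above the highest control at 460 CPM, and the other mutant is the lowest of all 12 at 252 CPM.

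In cortical endothelial nuclei none of the 6 genes passed the test either, and the intervals were wide. The test called 15 of 1511 genes (0.993%) over 3 mutant and 6 control libraries, and 0 of the 6, of which 1 had an unadjusted p under 0.05. All 6 differences were above 0, with a median of 0.74 against −0.04 for all genes, and the sums rested on 12 to 25 nuclei per mutant and 5 to 39 per control library. The direction depended on how nuclei were chosen, and that choice also changed which libraries reached 5 nuclei. The main fit had 9 libraries, against 11 with 1 clustering at resolution 1. It had 7 without nuclei of mixed origin and 6 without nuclei with mural UMIs. The parts of nuclei and of libraries in these changes were not told apart. With 1 clustering at resolution 1, 4 of the 6 were below 0 (Cldn5 −0.29, Ocln −0.23, Pecam1 −0.17 and Esam −0.59), as were Cldn5 (−0.12) and Pecam1 (−0.033) without nuclei of mixed origin and Ocln (−0.11) without nuclei with mural UMIs. The summed endothelial markers had the higher median in mutants, 32100 against 21099 CPM, with ranges that overlapped. Mural RNA, markers of vessel segments and depth also differed between these libraries, as given above. The part of each of these in the junction gene values was not tested.

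Cdh5 had 794, 521 and 793 CPM in mutants 1, 5 and 6, and between 88.8 and 632 CPM in the 6 controls with a median of 257 CPM. In 2 mutants the level was above all controls. The log2 fold change was 1.14 ± 0.43 (95% interval 0.22 to 2.06, adjusted p = 0.279), and it was 0.62 in nuclei without UMIs of mixed origin and 0.06 with 1 clustering at resolution 1. Tjp1 had 2632, 2041 and 1965 CPM in the 3 mutants, all above the controls at 288 to 1755 CPM, a separation also found for 6.49% of the genes tested. The difference was 0.79 ± 0.42 (−0.11 to 1.69, adjusted p = 0.477). Cldn5 had 1336, 1741 and 3033 CPM in the mutants and 288 to 2155 CPM in the controls (0.74 ± 0.52, −0.38 to 1.86, adjusted p = 0.621). The groups overlapped, as they did for Cdh5, Pecam1, Ocln and Esam. Pecam1 differed by 0.75 ± 0.41 (−0.13 to 1.62, adjusted p = 0.4935), Ocln by 0.42 ± 0.40 (−0.43 to 1.27, adjusted p = 0.712) and Esam by 0.29 ± 0.40 (−0.57 to 1.16, adjusted p = 0.827). Over 12 alternatives the difference ranged from −0.29 to 1.56 for Cldn5, from −0.23 to 0.65 for Ocln, from 0.10 to 0.99 for Tjp1, from 0.057 to 1.36 for Cdh5, from −0.17 to 0.97 for Pecam1 and from −0.59 to 0.54 for Esam. The 1.56 of Cldn5 (adjusted p = 0.108) came from nuclei without mural UMIs, in 6 libraries, and had the lowest adjusted p of these fits. Without mutant 6 the difference was 0.33 for Cldn5 and 0.16 for Esam. Esam was 0.11 without control 4 and 0.52 without mutant 5, and Ocln was 0.17 without mutant 1, 0.27 without control 6 and 0.75 without mutant 5. Marveld2 had 3 UMIs in the 3 mutant and 6 in the control libraries and was not tested.

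**Figure D5:**
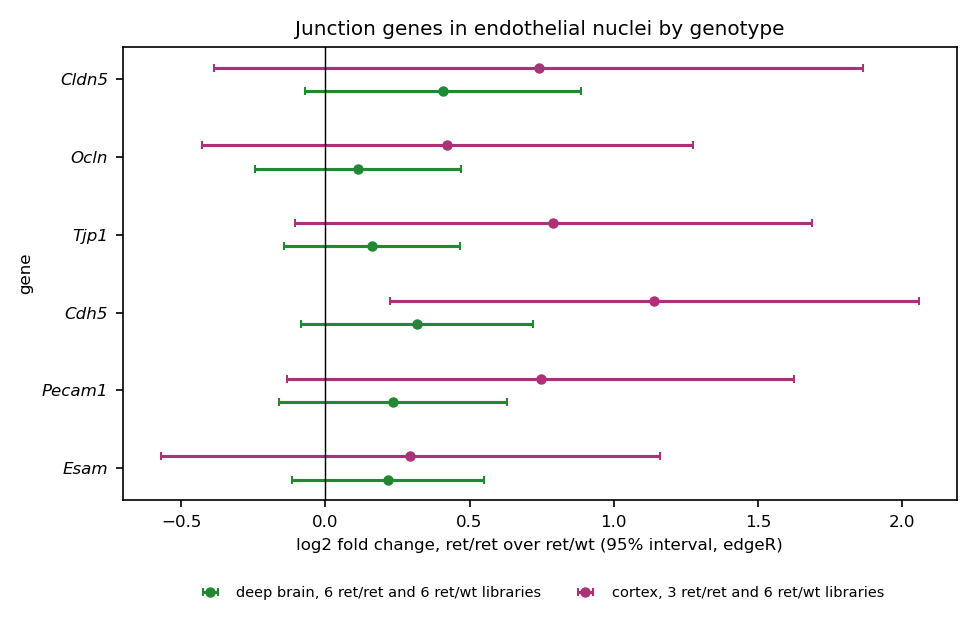
Log2 fold change of mutant (ret/ret) over control (ret/wt) for the 6 tested junction genes in endothelial nuclei, with 95% intervals of edgeR, in the deep brain and the cortex. All 12 points lie above 0. With 1 clustering at resolution 1, which used 11 cortical libraries in place of 9, 4 of the cortical ones do not. With junction genes kept in the clustering, which added a further cluster to the class, 4 of the deep brain ones do not. Of the 12 intervals, that of Cdh5 in the cortex leaves out 0, with an adjusted p of 0.279.

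Between regions of the control mice the junction genes did not pass the test. Of 4750 genes, 21 were called (0.442%), all lower in the deep brain, and 0 of the 6 junction genes were called or had an unadjusted p under 0.05. DESeq2 called 66 genes, none of them a junction gene. With the mouse as a block, which the shared animals allow, 0 genes were called. Mean levels in deep brain and cortex of controls were 1105 and 1159 CPM for Cldn5, 1706 and 1196 CPM for Tjp1, and 314 and 229 CPM for Ocln. The log2 differences, deep brain over cortex, were −0.10 ± 0.34 for Cldn5, 0.46 ± 0.24 for Tjp1 and 0.46 ± 0.25 for Ocln. Cdh5 had 0.26 ± 0.29, Pecam1 0.40 ± 0.26 and Esam 0.00 ± 0.25, and adjusted p was between 0.582 and 1.00 for the 6 genes. The median of the 6 was 0.33, beside 0.05 for all genes tested. Single mice moved these values by more than 1.5 times. Without control 2, Ocln was 0.27, Cdh5 0.065 and Pecam1 0.26. Without control 4, Tjp1 was 0.30 and Cdh5 0.13, Cdh5 was 0.42 without control 6, and Pecam1 was 0.23 without control 3. Cldn5 and Esam, both near 0, ranged from −0.33 to 0.066 and from −0.13 to 0.18. Other settings turned the sign of Cldn5, Ocln, Cdh5 and Esam.

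The genotype difference was not shown to differ between regions. The interaction, the deep brain difference minus the cortical one, was below 0 for all 6 genes, from −0.19 ± 0.37 for Esam to −0.94 ± 0.42 for Cdh5 (95% interval −1.80 to −0.08, adjusted p = 0.771). With 1 clustering at resolution 1 it was above 0 for 5 of the 6, at 0.59 for Cldn5, 0.24 for Ocln, 0.041 for Cdh5, 0.29 for Pecam1 and 0.71 for Esam. It was also above 0 for Cldn5 (0.27) and Pecam1 (0.064) without nuclei of mixed origin and for Ocln (0.22) without nuclei with mural UMIs. These settings also changed which cortical libraries reached the minimum number of nuclei. When 1 mouse was left out the interaction stayed below 0, but it moved by more than 1.5 times for 3 genes. Cldn5 was −0.18 without mutant 6 and −0.24 without control 4, and Ocln was −0.084 without mutant 1, −0.21 without control 2 and −0.66 without mutant 5. Esam ranged from −0.39 without mutant 5 to −0.098 without control 4. The edgeR test called 0 of 4750 genes (0%), with 289 at an unadjusted p under 0.05, and DESeq2 called 0. Depth moves with region, since the 9 cortical libraries rested on 13893 to 160378 endothelial UMIs each and those of the deep brain on 61541 to 236199.

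Summed over all nuclei of a library, as bulk RNA would show them, the 7 genes did not differ between genotypes beyond the spread between mice. In such sums, fewer cells of a type and less RNA per cell cannot be told apart. In the deep brain 324 of 21040 genes were called (1.54%), and 0 of the 7. Cldn5 had 3.93 CPM in mutants and 2.68 CPM in controls on average (log2 fold change 0.56 ± 0.32, adjusted p = 0.469). Pecam1 had 4.07 and 3.13 CPM (0.39 ± 0.19, adjusted p = 0.394), Cdh5 2.41 and 1.93 CPM (0.33 ± 0.17, adjusted p = 0.413) and Marveld2 3.59 and 2.94 CPM (0.28 ± 0.17, adjusted p = 0.516). Marveld2 was 0.18 without mutant 1 or without mutant 6. Ocln, Tjp1 and Esam lay between −0.05 and −0.01. None of the 7 had an unadjusted p under 0.05, and DESeq2 called none of them.

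In the cortex 50 of 18171 genes were called (0.275%), or 418 with the replicate number as a block, and 0 of the 7 in either fit. There Cldn5 had 3.87 CPM in mutants and 2.57 CPM in controls (0.60 ± 0.34, adjusted p = 0.706, and 0.382 with the block), and Pecam1 had 2.71 and 1.97 CPM (0.49 ± 0.27, adjusted p = 0.689, and 0.386 with the block). The other 5 genes had differences between −0.05 and 0.32. The highest was that of Cdh5, which was 0.14 without mutant 1 and 0.21 without mutant 6. Tjp1, at 0.08, was 0.030 without control 3 and 0.048 without mutant 5. Over these and the endothelial comparisons, none of 770 values of the junction genes passed the threshold in any setting, and the lowest adjusted p was the 0.0617 of Cldn5 given above.

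Outside the endothelium, 1 of the junction genes was called, in 1 class. Tjp1 was lower in astrocyte nuclei of mutants in the deep brain. Its level was 368, 444 and 466 CPM in the lowest, median and highest mutant library and 440.5, 519 and 604 CPM in controls, so that the ranges overlapped at their ends. The log2 fold change was −0.31 ± 0.09 (adjusted p = 0.0478), where 5.11% of the 13058 genes tested were called, 2.02% as lower. The call was lost without the filter on low counts (adjusted p = 0.0583) and in 10 of the 12 fits that left out 1 library, in which the difference was −0.35 to −0.27. Of the other 6 genes Ocln alone could be tested in this class, at 8.03 CPM in mutants and 4.95 CPM in controls (0.65 ± 0.27, adjusted p = 0.200).

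The makeup of the astrocyte class moved with this result, and its part in the difference was not tested. The largest cluster held 2600 control and 1338 mutant nuclei, and the second held 624 control and 3207 mutant nuclei. Within the first, Tjp1 was 414 ± 54.4 CPM in mutants and 515 ± 72.8 CPM in controls (n = 6 each). Within the second it was 369.8 ± 33.0 and 399.5 ± 41.3 CPM, and within a further one, of 1038 mutant and 1301 control nuclei, 552 ± 77.6 and 614 ± 53.0 CPM. The mutant mean was the lower one in these 3 clusters, with a smaller gap in the latter pair than over the whole class. In cortical astrocytes Tjp1 had 589.8 and 575 CPM in mutants and controls (0.03 ± 0.14, adjusted p = 0.976). Whether the deep brain difference was unlike the cortical one was not tested.

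In oligodendrocytes Tjp1 had 369 to 449 CPM in mutants and 299 to 375 CPM in controls of the deep brain (0.28 ± 0.08, adjusted p = 0.0899), and 354 to 477 against 293 to 414 CPM in the cortex (0.28 ± 0.12, adjusted p = 0.2995). In the deep brain 1.62% of 13521 genes were called in this class, and 0.95% of 10108 in the cortex. Neurons of the deep brain, of whose 19989 genes 0.39% were called, had Pecam1 at 0.37 ± 0.13 (adjusted p = 0.271) and Esam at −0.38 ± 0.13 (adjusted p = 0.257). In mural nuclei, with 1.68% of 238 genes called, only Tjp1 could be tested (0.04 ± 0.30, adjusted p = 0.924). Of the other classes, 0.092% of genes were called in deep brain and 0.582% in cortical microglia, 0.0247% in deep brain precursors of oligodendrocytes, 1.6% in cortical astrocytes and 0.00596% in cortical neurons, and in these no junction gene was called.

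Of the 40 other junction genes listed, 20 could be tested in deep brain endothelial nuclei, and 1 was called. Gjc1, which encodes the gap-junction protein connexin 45, was lower in mutants. It had 65.0 CPM in the lowest, 108 CPM in the median and 157 CPM in the highest mutant library and 185, 206 and 308 CPM in controls, so the groups did not overlap, as for 1.37% of the genes tested. The log2 fold change was −0.87 ± 0.21 (adjusted p = 0.0384), and 0.458% of the genes tested were called lower. Mural nuclei of the deep brain had 580.5 ± 154 CPM of Gjc1 in mutants (n = 5) and 484 ± 186 CPM in controls (n = 6), above endothelial nuclei, and the mural RNA of the endothelial sums had its lower median in mutants, as given above. Its part in this difference was not tested. Without the nuclei with mural UMIs Gjc1 was under the minimum count. The call was lost without nuclei of mixed origin (log2 fold change −0.73, adjusted p = 0.176), with 1 clustering at resolution 1 (−0.75, adjusted p = 0.276), with the junction genes kept in the clustering (−1.10, adjusted p = 0.149) and in 8 of 12 fits that left out 1 library (−0.98 to −0.74).

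The other 19 genes, of which 1 is a claudin (Cldn11), did not pass. The median over the 20 genes was −0.14, with 7 of 20 above 0, beside the 6 of 6 of the junction genes above. In the cortex 14 of the 40 could be tested and edgeR called none, with Gjc1 at −1.44 ± 0.52 (adjusted p = 0.245) and a median of 0.17. The lowest adjusted p of the 14 was that of Jam2, a junctional adhesion molecule named after its values were seen, at −1.46 ± 0.37 (adjusted p = 0.104). In the deep brain Jam2 had −0.26 ± 0.19 (adjusted p = 0.718). The lowest adjusted p of the uncalled genes there was that of Magi1, also named after its values were seen. It was higher in mutants, at 0.64 ± 0.18 (adjusted p = 0.0834).

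Over 23 mean profiles, the genes whose levels ran most like a junction gene were given by Pearson's r of log2(mean CPM + 1) among 14648 genes. Each named class and region gave 1 profile, except mural nuclei of the cortex, which had too few libraries. The 3 nearest to Cldn5 were Adgrl4 (r = 0.953), Sox7 (0.949) and Unc45b (0.949), and those nearest to Cdh5 were Hspa12b (0.962), Stap2 (0.9499) and Foxc1 (0.9497). Esam was nearest to Rgs5 (0.980), which served as a mural marker here, Sox18 (0.964) and Galnt15 (0.961). Ocln was nearest to Pltp (0.937), Rassf9 (0.899) and Mecom (0.898), and Pecam1 to Gnb1 (0.955), Gbp5 (0.937) and Tmsb4x (0.928). The values were lower for Tjp1, with Ramp2 (0.858), Vwa1 (0.857) and Gk5 (0.856), and for Marveld2, with Eif2ak4 (0.784), Plk2 (0.779) and Map4k3 (0.766). Among the 7 genes themselves, Cldn5 and Esam were the closest pair (0.908), and Tjp1 and Pecam1 the farthest (0.124). Adgrl4 and Mecom served as endothelial markers here, so the naming of classes fixed part of their profiles, as for Rgs5. The profiles share libraries and depth within a region, and these values are descriptions.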

How the data were processed

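Nuclei of 24 libraries were captured with 10x 5′ v2 chemistry. Per the labels and the study's methods, the authors aligned reads to mm10 with Cell Ranger 5.0.1, introns included, and deposited UMI counts per gene and barcode. Depth was 23625232 to 96459036 UMIs per library. No column was left unused (0).

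Here, a nucleus was retained if it had over 500 and under 7000 genes detected and a mitochondrial share below 20%. Each region was clustered on 2000 variable genes, 20 principal components and 20 neighbours, at resolution 0.01 and then 0.3 within clusters. A cluster was named where at least 3 markers exceeded 2-fold and the median marker 4-fold (pseudocount 10 CPM). The second resolution and these naming limits were set after clusters had been seen. No doublet caller was run, and RNA carried into droplets from other cells was not estimated. In the cortex 50.6% of kept nuclei stayed unnamed, against 1.4% in the deep brain.

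UMI counts were summed per library and class with at least 5 nuclei and tested with edgeR 4.0.16 (quasi-likelihood, TMM, filterByExpr, Benjamini-Hochberg, adjusted p under 0.05) in R 4.3.3. Genotype fits used 1 region, and region and interaction fits used all 4 groups without a term for the mouse. Every adjusted p is from edgeR unless DESeq2 1.42.0 is named. Shares of nuclei were compared with exact permutation tests in scipy 1.17.1. For detection, nuclei were thinned to 1000 UMIs, and the floor was 3 UMIs. The fits were tested on simulated data. Python 3.11.15, numpy 2.4.6, pandas 2.3.3, python-igraph 0.11.9 and matplotlib 3.10.9 were also used.

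Same-numbered mutant and control libraries had correlated deviations over all nuclei of the cortex (r = 0.343 to 0.919), which met the criterion for pairing (over 0.1 in every pair). For mutants 2, 4 and 6 a control of another number correlated more strongly, at 0.423, 0.816 and 0.780. The criterion therefore did not show that the numbers pair mice. By the labels, same-numbered mice 1 to 4 of both genotypes had the same age to the day. Mutant 5 and control 6 were aged 4 months and 7 days, and mutant 6 and control 5 were aged 4 months and 9 days. The block matched by age exchanged the numbers of controls 5 and 6. The fits given are without the block, and blocked values stand beside those of all cortical nuclei. The criterion was not met in endothelial nuclei (−0.12 to 0.12 in the deep brain) or over all deep brain nuclei (−0.26 to 0.57, over 0.1 in 3 of 6 pairs), where the pairing was not settled. Both regions of a mouse came from the same animal. Alternatives were DESeq2, RLE factors, no filter, blocks, age, a 5% mitochondrial limit, other clusterings, the removal of nuclei with at least 2 UMIs of a marker of another class (mixed origin), and each mouse left out. Leaving out nuclei with mural UMIs, the minimum of 10 nuclei, the paired test of shares and the alternatives for astrocytes were added after seeing the data. All 7 genes were named. Of the 40 further junction genes those past the threshold were. Jam2, Magi1 and Cldn11 were also named, though they did not pass. For each of the 7 the 3 genes with the most similar profile were named, among those with at least 20 CPM in 1 class. Members and lists were chosen with earlier results of these data known. Gene spans came from the GENCODE annotation and promoters from RefSeq, both on GRCm38.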

Additional observations from a re-analysis of the deposited data

Results flagged for a closer look

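In 2 of 53 groups tested, 1 library lay far from the others by Dixon's criterion, which chance alone meets in about 1 in 20 groups. Cdh5 in endothelial nuclei of the deep brain was 252 CPM in mutant mouse 1, where the median of the other 5 mutants was 487 CPM. The same library was the lowest of the mutants for Cldn5, Ocln, Pecam1 and Esam. Marveld2 summed over all nuclei of the deep brain was 4.09 CPM in control mouse 3, where the median of the other 5 controls was 2.65 CPM. Their cause was not tested.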

How the results depend on the processing

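None of the junction genes passed the threshold in an endothelial or all-nuclei comparison under any alternative run. Counts of called genes moved more. In deep brain endothelial nuclei, where 52 genes were called, 158 were called with no filter, 19 with 1 clustering at resolution 1 and 9 with junction genes kept in the clustering. In cortical endothelial nuclei (15) the counts were 27 by DESeq2, 81 with no filter, 39 with the replicate block, 6 with the block matched by age, 7 without nuclei of mixed origin, 1 with 1 clustering, 9 with junction genes kept and 25 with at least 10 nuclei. Between regions (21) they were 66 by DESeq2, 45 with RLE factors, 155 with no filter, 0 with the mouse as replicate block, 4 without mixed nuclei, 7 with 1 clustering, 1 without mural nuclei and 60 with at least 10 nuclei. For the interaction (0) they were 23 with no filter and 1 without mixed nuclei. Over all nuclei they were 960 by DESeq2 and 507 with the replicate block in the deep brain (324), and 270 by DESeq2, 77 with no filter and 418 with the block in the cortex (50). The cause was not tested.

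Some log2 differences, none of them called, turned sign. Another clustering, or leaving out mixed or mural nuclei, also changed which cortical libraries reached the minimum number of nuclei. With junction genes kept in the clustering, which added the deep brain cluster described above, endothelial values there were −0.13 for Ocln, −0.013 for Tjp1, −0.041 for Pecam1 and −0.018 for Esam. In the cortex they were −0.12 for Cldn5 and −0.033 for Pecam1 without mixed nuclei, −0.11 for Ocln without mural nuclei, and −0.29 for Cldn5, −0.23 for Ocln, −0.17 for Pecam1 and −0.59 for Esam with 1 clustering. Between regions Cldn5 was 0.10 with no filter, 0.047 with the mouse block and 0.13 without mural nuclei, Ocln −0.14 without mural nuclei, Cdh5 −0.042 without mixed nuclei, and Esam −0.089 by DESeq2, −0.094 with RLE factors, −0.22 with 1 clustering and −0.12 without mural nuclei. The interaction was 0.27 for Cldn5 and 0.064 for Pecam1 without mixed nuclei, 0.22 for Ocln without mural nuclei, and 0.59 for Cldn5, 0.24 for Ocln, 0.041 for Cdh5, 0.29 for Pecam1 and 0.71 for Esam with 1 clustering. Over all cortical nuclei with the block Ocln was −0.00024. The other 279 single values kept their direction and their side of the threshold, and 4 lost their call: Gjc1 and Tjp1 in astrocytes, as given above.

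Thinning moved the shares of endothelial nuclei with a UMI, in the order Cldn5, Ocln, Tjp1, Cdh5, Pecam1, Esam and Marveld2, to 54.2%, 27.1%, 77.6%, 25.0%, 40.8%, 40.8% and 1.41% in the deep brain and to 54.5%, 21.0%, 69.9%, 26.6%, 51.0%, 42.0% and 0.699% in the cortex.

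Leaving out 1 mouse at a time gave 32 to 104 called genes in deep brain and 3 to 17 in cortical endothelial nuclei, 0 to 75 between regions, 0 for the interaction, and 92 to 450 and 11 to 110 over all nuclei of the deep brain and the cortex. The difference in the share of endothelial nuclei was −0.120 to −0.00359 percentage points in the deep brain and −0.126 to −0.0505 in the cortex. Some uncalled log2 differences changed sign in these fits. Between regions Cldn5 ranged from −0.33 to 0.066 and Esam from −0.13 to 0.18. Over all deep brain nuclei Ocln ranged from −0.16 to 0.063, Tjp1 from −0.046 to 0.015 and Esam from −0.18 to 0.038. Over all cortical nuclei Ocln ranged from −0.054 to 0.071, Esam from −0.14 to 0.053 and Marveld2 from −0.12 to 0.019. No junction gene was called in endothelial nuclei or in all nuclei in these fits. Called values stayed below 0, at −0.98 to −0.74 for Gjc1 (adjusted p 0.0236 to 0.108) and −0.35 to −0.27 for Tjp1 in astrocytes (adjusted p 0.0270 to 0.118). With the replicate block, an exact test over the 64 sign changes of 6 same-numbered pairs, added after seeing the data, gave the share of endothelial nuclei p = 0.469 in the deep brain (lower in 4 mutants of 6 pairs) and 0.156 in the cortex (lower in 5 of 6), and the smallest p it allows is 0.0312. The smallest cortical library rested on 13893 endothelial UMIs, which limits what the cortex can show.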
